A study of Arabidopsis thaliana with 12 samples.

Results

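The loss of the *CBP60b* clade in plants that already lacked EDS1, PAD4 and NDR1 was examined by comparing the transcriptome of the *octuple* mutant, *cbp60b;c;d;e;f* joined to *eds1;pad4;ndr1*, with that of the *triple* mutant *eds1;pad4;ndr1*. The comparison rested on 6 of the 12 libraries of the series, 3 of *octuple* and 3 of *triple*, and all 23784 counted genes were considered. Both genotypes were in the Columbia-0 accession of Arabidopsis thaliana and both carried the *eds1-c1*, *pad4-c1* and *ndr1-c1* alleles, so the labelled difference between them was the mutation of *CBP60b*, *CBP60c*, *CBP60d*, *CBP60e* and *CBP60f* in *octuple*. The labels do not say which of the *quintuple* lines of the study was used to make *octuple*. Aerial parts of seedlings aged 2 weeks and grown in long days were collected, 20 to 30 seedlings were pooled for each sample, and the 3 samples of a genotype were described as biological replicates. The remaining 6 libraries, of wild type (WT) and of the *quintuple* mutant *cbp60b;c;d;e;f* with intact *EDS1*, *PAD4* and *NDR1*, served to ask whether the effect was of the same size in both backgrounds. In these pools of whole shoots, fewer cells of a type and less RNA per cell cannot be told apart.

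CBP60 proteins are plant calmodulin-binding proteins, many of which act as transcription factors. CBP60g and SARD1, which belong to another branch of the family, drive genes of salicylic acid (SA) and N-hydroxypipecolic acid (NHP) synthesis, whereas plants without CBP60b show autoimmunity, an immune response without a pathogen. EDS1 and PAD4 form a complex that relays signals from immune receptors with a TIR domain (TNLs) through the helper receptors of the ADR1 group. NDR1 is a plasma membrane protein needed by many receptors with a coiled-coil domain (CNLs), so the *triple* mutant lacks the main routes of effector-triggered immunity.

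The oligonucleotides that the study used to follow these alleles and the immune markers *PR1* and *PR2* are shown with the stretch that each pair spans. The levels below are counts over whole genes, not over these stretches. Capitals mark the bases that matched the TAIR10.1 assembly (RefSeq), each at 1 place, and the lower-case start of a primer is a tail that did not match. The pair for *CBP60c* lies in coding exons on chromosome 2 and spans chr2:8125827-8127025 on the plus strand, 1199 bp of which 66.2% is exonic.
cbp60c-c1-F: caccATGCAGACGAGGTATATGGAGAG
cbp60c-c1-R: AACCTCCAGACCTCATCATCC
The pair for *CBP60f* also lies in coding exons and spans chr4:15103402-15104772 on the plus strand, 1371 bp of which 67.6% is exonic.
cbp60f-c1-F: caccATGGAAAATTCTATGAACAACAGAGG
cbp60f-c1-R: TGCGGATCCTTCATGAGTATC
The pair for *PAD4* spans chr3:19431510-19432284 on the plus strand, 775 bp of which 44.8% is exonic. Its forward primer lies in an exon that is not wholly coding and its reverse primer lies in the gene but not wholly in an exon.
pad4-c1-F: ATATTTACAACTTCATAAACATCATC
pad4-c1-R: TTATTATCTATTGTCTATTGCCTATT
The 120 bp stretch of *PR1* at chr2:6241913-6242032 and the 182 bp stretch of *PR2* at chr3:21189442-21189623, both on the minus strand, are wholly exonic.
PR1-F: GTGCCAAAGTGAGGTGTAACAA
PR1-R: CGTGTGTATGCATGATCACATC
PR2-F: TACGGGATGCTAGGCGATACC
PR2-R: CTGGAGGCGAGACGTTCAAGAT

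The mutated genes were examined first. Of these 8 genes 2 rose and none fell in *octuple*, against 5.53% and 0.639% of all tested genes. Levels are given as CPM, counts relative to a common library total after TMM scaling over all 12 libraries, in the order of replicates 1, 2 and 3. *CBP60c* stood at 51.9, 48 and 47.9 CPM in *triple* and at 31.7, 26.8 and 30.2 CPM in *octuple*. All 3 *octuple* libraries lay below all 3 *triple* libraries, but the log2 fold change of -0.75 ± 0.10 did not reach the fold of 2 required of a call (adjusted p = 0.0025). The value after ± is a standard error (SE) derived from the test statistic of the fit. It does not give the spread of the replicates. *CBP60f* went the other way and rose from 21.8, 14.8 and 7.55 CPM to 55.3, 55.3 and 24.3 CPM, a log2 fold change of 1.63 ± 0.13 (adjusted p = 0.00027). Its transcript was more abundant in the mutant than in plants with an intact *CBP60f*, and counts over a whole gene do not show whether that transcript can be translated. Transcripts of *CBP60b*, *CBP60d* and *CBP60e* remained countable in *octuple*, with log2 fold changes of 0.28, -0.04 and -0.27 that did not pass the test.

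*EDS1*, *PAD4* and *NDR1* carried the same alleles in both groups. *PAD4* rose from 1.42, 1.14 and 1.44 CPM in *triple* to 3.47, 3.00 and 3.54 CPM in *octuple*, a log2 fold change of 1.32 ± 0.25 (adjusted p = 0.013) between groups that did not overlap. *EDS1* and *NDR1* had overlapping groups and log2 fold changes of 0.56 and 0.35 that were not called. None of the 9 tested relatives and partners was called, against 6.16% of all tested genes. This depended on the fit, since with 1 library left out 0 to 3 of the 9 were called higher. Over 16 alternative fits *ADR1-L1* was called higher in 6, *CBP60a* in 3 and *CBP60g* in 2. *CBP60g* reached 7.48, 4.75 and 1.76 CPM in *triple* and 14.4, 5.62 and 13 CPM in *octuple*, with groups that overlapped (log2 fold change 1.29 ± 0.42, adjusted p = 0.092). *SARD1* also had overlapping groups, with 2.1, 0.455 and 1.34 CPM in *triple*, 3.33, 0.842 and 3.73 CPM in *octuple* and a log2 fold change of 1.01. *CBP60a* was higher in all 3 same-numbered pairs, just under the fold of 2 (log2 fold change 0.98 ± 0.14, edgeR adjusted p = 0.0032). It went from 30.1, 28.3 and 9.65 CPM to 60.6, 44.5 and 24.1 CPM, with groups that overlapped. The gene of the helper receptor ADR1-L1 lay higher in every *octuple* library, just under the fold of 2, from 40.8, 34.5 and 41 CPM to 93.3, 60.2 and 80.3 CPM (log2 fold change 0.98 ± 0.11, adjusted p = 0.0013), and *ADR1-L2* lay lower in *octuple* by a log2 fold change of -0.55. *SAG101*, which pairs with EDS1 in a second complex, had a log2 fold change of 0.77 between groups that did not overlap (edgeR adjusted p = 0.011). *PAD4* was not called without *octuple* replicate 1 (log2 fold change 1.33, adjusted p = 0.093) or without *triple* replicate 1 (1.34, adjusted p = 0.076), and *CBP60f* was not called without the replicate block (adjusted p = 0.16).

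Across the transcriptome the change was large and mostly upward. Of 19238 genes with enough counts to be tested, 1063 (5.53%) rose and 123 (0.639%) fell in *octuple*, where a call needed a Benjamini-Hochberg adjusted p below 0.05 in edgeR's quasi-likelihood test with the replicate number as a block, and a fold of at least 2. The counts of each list below are to be set beside these 2 shares. Of the genes that rose, 602 did so at least 4-fold, 231 at least 16-fold and 129 at least 32-fold, whereas only 39 of the genes that fell did so at least 4-fold and 8 at least 8-fold. The median log2 fold change was 2.36 over the genes that rose, -1.49 over those that fell and -0.03 over all tested genes. Every called gene moved in its direction in all 3 same-numbered pairs. The 3 *octuple* libraries did not overlap the 3 *triple* libraries in 969 of the genes that rose (91.2%) and in 93 of those that fell (75.6%), against 21.2% of all tested genes. Both traits follow in large part from the call, which rests on the same libraries and pairs, and are no separate support for it. Without the block 441 genes rose and 24 fell, all of them among the calls above.

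**Figure D1:**
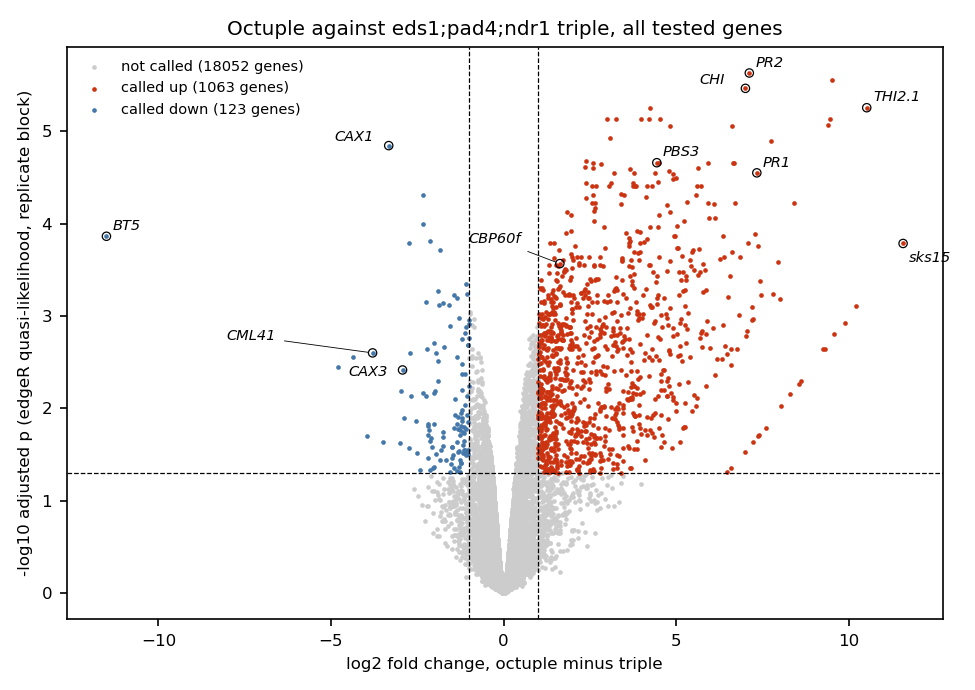
Each point is 1 of the 19238 tested genes, with the log2 fold change of *octuple* minus *triple* on the x axis and -log10 of the adjusted p on the y axis, and dashed lines at a fold of 2 and an adjusted p of 0.05. Red points (1063 genes that rose) far outnumber blue points (123 genes that fell), and the named genes are circled. The points farthest out, such as *BT5* and *sks15*, belong to genes with no or almost no counts in 1 group and depend on the prior count of the fit.

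The 6 libraries held 39891638 to 44294404 counted fragments, so 3 counts, the limit that a count of 0 allows, corresponded to 0.0647 to 0.0787 CPM for counting error only. Replicate 3 of both genotypes stood apart on the second principal component (33.5% of the variance, against 48.3% on the first, which separated the genotypes). Genes of the circadian clock moved with it. *LHY*, a core clock gene of the morning, stood at 102, 24.7 and 3.32 CPM in *triple* and at 80.9, 24.4 and 4.47 CPM in *octuple*. None of the 12 tested clock genes was called between the genotypes (log2 fold changes of -0.29 to 0.41). With 6.16% of all tested genes called, a list of 12 can lack a call by its size alone. Markers of other organs were low. The 7 root markers in the counts, 1 of them (CASP2) at 0 in all 6 libraries, summed to 0.787 to 1.18 CPM in *triple* and 0.971 to 1.98 CPM in *octuple*, and the 5 flower markers summed to 1.59 to 2.4 CPM and 0.386 to 0.712 CPM. Leaf mesophyll markers summed to 42000 to 62400 CPM in *triple* and 36700 to 59200 CPM in *octuple*. Guard cell markers were lower in *octuple*, 33.3 to 40.9 CPM against 49.5 to 59.4 CPM, as were those of trichomes and epidermis, 224 to 293 CPM against 337 to 418 CPM, and the part of these shifts in the results was not tested. Without replicate 3 of both genotypes, an alternative chosen after seeing the data, 1183 genes rose and 164 fell.

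SA is made in Arabidopsis mainly from isochorismate. Of 9 tested genes of its synthesis 3 rose and none fell, with a median log2 fold change of 0.46 against -0.03 over all tested genes. *PBS3*, whose enzyme joins isochorismate to glutamate, stood at 1.44, 1.09 and 1.13 CPM in *triple* and 34, 16.2 and 32.5 CPM in *octuple*, a log2 fold change of 4.44 ± 0.20 (adjusted p = 2.2e-05). All *octuple* libraries lay far above all *triple* libraries. *SID2*, the isochorismate synthase, went from 14.2, 12.2 and 4.99 CPM to 63.3, 31.7 and 56 CPM, with *octuple* replicate 2 lowest of its group but still above all of *triple* (log2 fold change 2.30 ± 0.33, adjusted p = 0.0041). *EDS5*, which exports isochorismate from plastids, rose by a log2 fold change of 1.96 ± 0.23, from 5.75, 6.74 and 4.66 CPM to 25.9, 15.9 and 26.7 CPM. *EPS1*, which acts on the product of PBS3, had a log2 fold change of 0.91 that stayed under the fold of 2, and the 4 PAL genes of the phenylpropanoid route lay between -0.47 and 0.46 without a call. *SID2* was not called without the block (adjusted p = 0.054), without *octuple* replicate 1 (log2 fold change 2.38, adjusted p = 0.057) or without *triple* replicate 1 (2.39, adjusted p = 0.059).

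Of 5 tested genes whose enzymes hydroxylate or glucosylate SA 3 rose and none fell, with a median log2 fold change of 3.95. *DLO1*, a salicylate 3-hydroxylase, stood at 0.210, 0.379 and 0.259 CPM in *triple* and 24.9, 8.59 and 45.2 CPM in *octuple*, a log2 fold change of 6.35 ± 0.44 (adjusted p = 0.00014). *DMR6*, the 5-hydroxylase, rose from 10.9, 4.17 and 2.82 CPM to 108, 59.3 and 82.9 CPM (3.95 ± 0.27 on the log2 scale). *UGT76B1*, which glucosylates SA and NHP, rose from 0.210, 0.202 and 0.165 CPM to 7.91, 1.36 and 9.00 CPM (4.74 ± 0.51). In all 3 genes the groups lay apart, and replicate 2 was the lowest *octuple* library. The glucosyltransferase genes *UGT74F1* and *UGT74F2* had log2 fold changes of -0.47 and -0.16 and were not called.

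Of 15 tested genes of SA receptors and SA response 9 were called, all higher in *octuple*, and in 1 of the 9 the groups overlapped. *PR1*, the usual marker of this response, stood at 1.68, 2.00 and 2.71 CPM in *triple* and at 470, 432 and 209 CPM in *octuple*, a log2 fold change of 7.34 ± 0.36 (adjusted p = 2.8e-05). *PR2*, a beta-1,3-glucanase, rose from 3.78, 1.51 and 3.51 CPM to 433, 277 and 490 CPM (7.12 ± 0.16 on the log2 scale, adjusted p = 2.3e-06). All *octuple* libraries lay far above all *triple* libraries for both genes, and replicate 3 was the lowest *octuple* library for *PR1* but the highest for *PR2*. *PR5*, a thaumatin-like protein, rose from 17.5, 6.49 and 11.2 CPM to 334, 243 and 542 CPM, by 5.01 ± 0.25. The median log2 fold change over the 15 receptor and response genes was 2.99, and 5 of them rose without the block. *WRKY38*, a WRKY factor induced by SA, stood at 0, 0 and 0.188 CPM in *triple* and 15.9, 3.54 and 14.3 CPM in *octuple*. *NIMIN1*, whose protein binds NPR1, rose from 0, 0.0253 and 0.235 CPM to 2.46, 1.19 and 5.66 CPM. *NIMIN2*, *GRX480*, *WRKY18* and *WRKY54* rose as well, with log2 fold changes of 2.99, 3.17, 1.48 and 1.45. Genes of the SA receptors themselves were not called. *NPR1* stood at 23.9, 23.7 and 25.7 CPM in *triple* and 29.8, 22.9 and 29.1 CPM in *octuple* (log2 fold change 0.14 ± 0.12), and *NPR3* and *NPR4* had log2 fold changes of 0.37 and -0.27. *NIMIN1* was not called without the block (adjusted p = 0.075).

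NHP is the mobile signal of systemic acquired resistance. *FMO1*, the monooxygenase that makes NHP, was at 0.157, 0.0505 and 0.0235 CPM in *triple* and at 2.94, 0.322 and 2.65 CPM in *octuple*, a log2 fold change of 4.55 ± 0.67 (adjusted p = 0.0043). Octuple replicate 2 was far under the other *octuple* libraries but still above *triple*. *ALD1*, which acts first in this pathway, had 11 counts over the 3 *triple* libraries, 10 of them in replicate 1, and 2 over the 3 *octuple* libraries, and was too low to be tested. *AZI1*, a lipid transfer protein gene needed for systemic resistance, rose from 2.33, 1.34 and 1.46 CPM to 81.6, 71.7 and 16 CPM (4.81 ± 0.38 on the log2 scale). *EARLI1*, a related gene near it, rose from 4.78, 1.62 and 0.612 CPM to 42.9, 32.3 and 17.6 CPM (3.97 ± 0.29). Replicate 3 was the lowest *octuple* library for both, whereas for the legume lectin gene AT5G03350 replicate 2 was. AT5G03350 rose from 12.7, 5.63 and 6.05 CPM to 289, 87.3 and 201 CPM (4.50 ± 0.20). Of 7 tested genes of this list 5 rose, with a median of 3.97, and 2 of them rose without the block. *FMO1* was not called without the block (adjusted p = 0.081), without *octuple* replicate 1 (log2 fold change 4.87, adjusted p = 0.078) or without *triple* replicate 1 (4.96, adjusted p = 0.057), and *EARLI1* was lost without the block (adjusted p = 0.061).

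**Figure D2:**
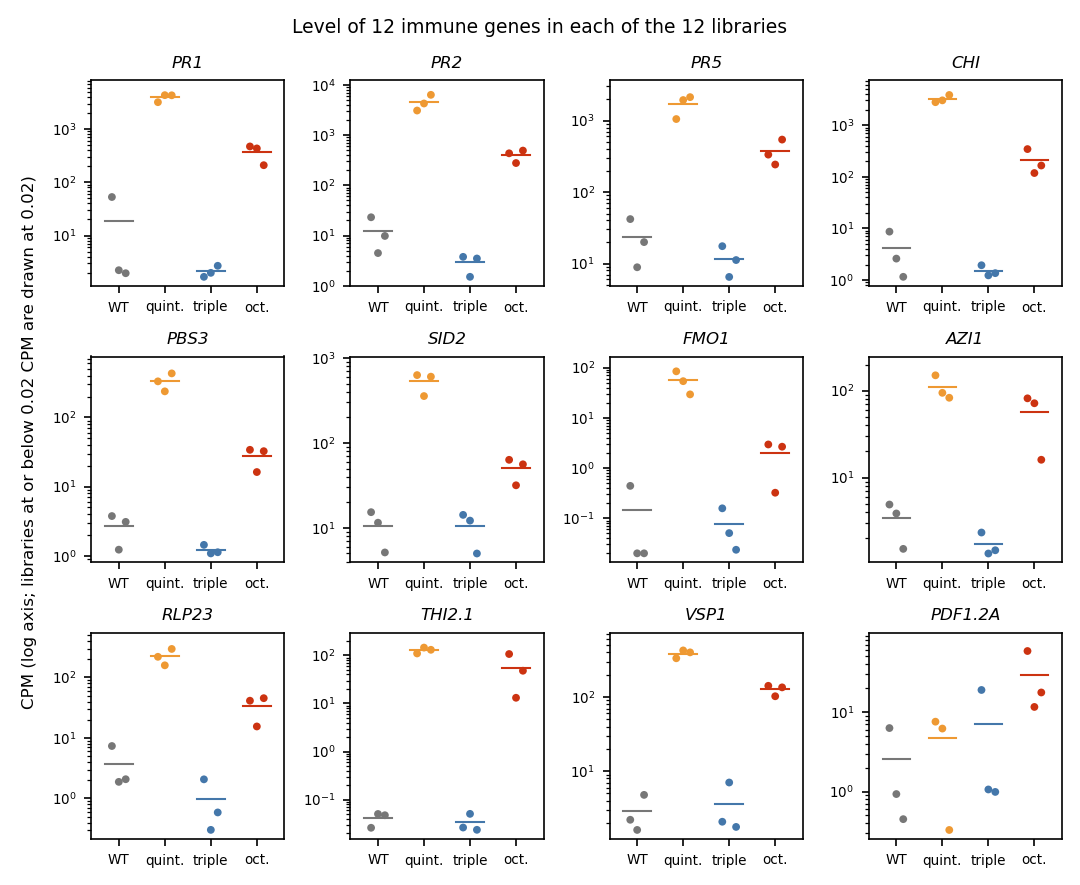
Points are the 12 libraries, 3 of each genotype in the order of replicates 1 to 3 from left to right, bars are the mean of the 3, and the y axis is CPM on a log scale that differs between the 12 genes. In 11 of the 12 genes every *octuple* library (red) lies above every *triple* library (blue), and in *PDF1.2A* *octuple* replicates 2 and 3 lie below *triple* replicate 1.

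Genes in the list of chitinases and glucanases were called in 8 of 9 tested cases, with a median log2 fold change of 5.72. This was the highest share of the lists drawn in the plot of shares by list. *CHI*, a chitinase, rose from 1.94, 1.24 and 1.36 CPM in *triple* to 344, 118 and 165 CPM in *octuple* (log2 fold change 7.01 ± 0.19, adjusted p = 3.4e-06). *HCHIB*, the basic chitinase also known as PR3, rose from 1.02, 0.657 and 0.847 CPM to 143, 78.5 and 47.7 CPM (6.62 ± 0.25). AT2G43620, another gene of the chitinase family, rose from 5.88, 2.73 and 0.847 CPM to 200, 223 and 133 CPM (6.08 ± 0.36). The glycosyl hydrolase gene AT4G16260 went from 2.26, 0.278 and 0.659 CPM to 108, 43.1 and 32 CPM (5.93 ± 0.27). In each of these 4 genes every *octuple* library lay far above every *triple* library. *HEL*, the hevein-like PR4, rose less in relative terms, from 51.1, 44.5 and 30.2 CPM to 512, 318 and 268 CPM (3.09 ± 0.12). *BG3*, a beta-1,3-glucanase, was nearly equal in the 3 *octuple* libraries at 7.84, 7.82 and 8.01 CPM, against 0.0262, 0 and 0.447 CPM. *EP3*, a class IV chitinase, stood at 5.09, 4.39 and 4.19 CPM and 5.67, 4.73 and 4.79 CPM (log2 fold change 0.14 ± 0.17) and was not called, but 72.0% of its 50-base exonic sequences also lie in another gene, so its counts are uncertain. *PNP-A*, a secreted natriuretic peptide, is in no list here but had one of the 10 largest fold changes of the genes measured in both groups, from 0.499, 0.202 and 0.0941 CPM to 33.2, 17.9 and 29.4 CPM (6.69 ± 0.31). AT4G39320, annotated as a microtubule-associated protein-like protein, rose from 0.892, 0.303 and 0.847 CPM to 30.4, 61.5 and 40.7 CPM (5.95 ± 0.38).

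Receptors of pattern-triggered immunity did not move as one group. Of 24 tested genes of the pathway 7 rose (29.2%, against 5.53% of all tested genes), none fell and the median log2 fold change was 0.52. *RLP23*, which recognises a peptide of microbial necrosis-inducing proteins, rose from 2.07, 0.303 and 0.588 CPM in *triple* to 41.3, 15.5 and 45.5 CPM in *octuple* (log2 fold change 5.23 ± 0.34, adjusted p = 9.3e-05). *SOBIR1*, the kinase that partners receptor-like proteins, rose from 31.8, 19.8 and 21.2 CPM to 158, 90.7 and 140 CPM (2.40 ± 0.12). *LYK5*, a chitin receptor kinase, rose from 5.2, 3.08 and 3.46 CPM to 17.8, 14.7 and 18.6 CPM (2.13 ± 0.16). All 3 had separate groups, and 28.0% of the 50-base sequences of *SOBIR1* also lie in another gene. The pathway's marker genes *NHL10* and *FRK1* rose by 4.49 ± 0.43 and 3.82 ± 0.70 on the log2 scale, and the MAP kinase gene *MPK11* by 4.22 ± 0.62. *BKK1*, a somatic embryogenesis receptor-like kinase gene, rose from 27.3, 15.7 and 11.9 CPM to 48.9, 30.9 and 40.8 CPM (1.18 ± 0.17), with 25.2% shared 50-base sequences. Its call was lost without the block (edgeR adjusted p = 0.17) and without *octuple* replicate 3 (log2 fold change 0.91). Genes of the flagellin receptor, *FLS2*, the elongation factor receptor, *EFR*, the coreceptor, *BAK1*, and the kinase *BIK1* had log2 fold changes of 0.17, 0.77, 0.28 and 0.66. The MAP kinase genes *MPK3*, *MPK4* and *MPK6* had 0.40, -0.03 and 0.12, and none of these 7 was called. *RBOHD*, the oxidase of the immune oxidative burst, went from 77.4, 47.6 and 83.9 CPM to 120, 76 and 126 CPM and had an adjusted p of 0.0048 at a log2 fold change of 0.62 ± 0.09, under the fold of 2. *FRK1* was not called without the block (adjusted p = 0.23), and *MPK11* neither without *octuple* replicate 1 (log2 fold change 3.83, adjusted p = 0.073) nor without *triple* replicate 1 (3.86, adjusted p = 0.064).

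Of the 45 tested genes carrying a receptor-like protein (RLP) symbol 19 rose and 1 fell, with a median log2 fold change of 0.91. *RLP24* had the largest change of them, from 0.157, 0.278 and 0.0941 CPM to 27.6, 9.86 and 21.7 CPM (6.70 ± 0.39 on the log2 scale), followed by *RLP53*, *RLP23*, *RLP28* and *RLP40* with log2 fold changes of 5.28, 5.23, 4.84 and 4.74. *RLP44*, known for its part in cell wall and brassinosteroid signalling, was the 1 that fell (-1.36). Of 39 tested genes with a cysteine-rich receptor-like kinase (CRK) symbol 19 rose and none fell, with a median of 1.37. *CRK38* rose from 0.157, 0.0253 and 0 CPM to 3.45, 2.08 and 4.14 CPM (5.75 ± 0.67). *CRK7* rose from 0.315, 0.0253 and 0.282 CPM to 9.04, 7.92 and 10.4 CPM (5.48 ± 0.41), and *CRK6* rose from 3.15, 0.429 and 0.871 CPM to 54.8, 33.9 and 78.4 CPM (5.39 ± 0.43). The *octuple* libraries of all 3 lay above *triple*, and 22.0% of the 50-base sequences of *CRK6* also lie in another gene, so part of its counts may belong to a close copy. Without the block 9 RLP genes and 8 CRK genes rose.

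WRKY factors bind W-box sequences in many immune genes. Of 51 tested genes carrying a WRKY symbol 13 rose and none fell, 10 of them also without the block, while the median over the family was 0.42. *WRKY46* rose from 1.34, 1.39 and 0.353 CPM to 13.9, 12.6 and 15.9 CPM (3.84 ± 0.38 on the log2 scale). *WRKY53*, which also regulates leaf senescence, rose from 2.57, 2.27 and 1.39 CPM to 27.8, 19 and 32.4 CPM (3.64 ± 0.26), and 18.5% of its 50-base sequences also lie in another gene. For both, every *octuple* library lay above every *triple* library. *WRKY75* had 1 count over the 3 *triple* libraries and 198 over the 3 *octuple* libraries, a ratio of 186 with a 95% counting interval of 32.9 to 7370, and stood at 2.56, 0.916 and 1.19 CPM in *octuple*. *WRKY50* had 1 and 200 counts (ratio 188, interval 33.3 to 7440) and stood at 1.25, 0.941 and 2.37 CPM in *octuple*. *WRKY70*, which acts in SA signalling, had a log2 fold change of -0.15 and was not called. Of 70 tested NAC genes 10 rose (14.3%, against 5.53% of all tested genes), 6 of them without the block, and their median was 0.16. Among those that rose was *NAC090*, from 0.131, 0.0253 and 0.0235 CPM to 1.28, 0.743 and 3.43 CPM (4.75 ± 0.71). Another was *NAC071*, with 0 counts in *triple* and 147 in *octuple*, at least 45.9-fold higher against a floor of 3 counts over the group.

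Intracellular receptors of the NLR class were examined for 11 genes that the study names, 7 of which had enough counts, and 2 of these rose. *RMG1*, a TNL gene, had 1 count over the 3 *triple* libraries and 221 over the 3 *octuple* libraries, a ratio of 207 with a counting interval of 36.8 to 8220, and reached 2.48, 1.36 and 1.36 CPM in *octuple*. *DAR5* rose from 2.54, 0.783 and 2.52 CPM to 19.8, 11.3 and 11.6 CPM (2.92 ± 0.29 on the log2 scale, adjusted p = 0.00069). *SOC3*, another TNL gene, stood at 4.8, 3.61 and 7.95 CPM and 5.79, 4.83 and 10.9 CPM (log2 fold change 0.37 ± 0.16) with overlapping groups, and 48.8% of its 50-base sequences also lie in another gene. Of 69 tested genes annotated as TIR-NBS-LRR proteins, a list chosen after values were seen, 7 rose (10.1%, against 5.53% of all tested genes) and none fell. Their median log2 fold change was 0.06. Without the block 2 of the 69 rose.

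Jasmonate (JA) acts in wounding and in defence against necrotrophs and insects. Output genes of its wound branch rose in 5 of 8 tested cases, with a median log2 fold change of 3.44, and 3 of them rose without the block. *THI2.1*, a thionin, went from 0.0262, 0.0505 and 0.0235 CPM in *triple*, which was under the limit of 3 counts in each library, to 107, 13.1 and 47.9 CPM in *octuple*, a fitted log2 fold change of 10.52 ± 0.33 (adjusted p = 5.6e-06). In the fit over all 12 libraries it was 10.38 ± 0.90. *VSP1*, a vegetative storage protein, rose from 2.07, 7.02 and 1.76 CPM to 142, 102 and 135 CPM (5.30 ± 0.46). *VSP2* rose from 40.8, 40.3 and 40.9 CPM to 292, 218 and 235 CPM (2.59 ± 0.12), with *triple* libraries that were nearly equal. In all 3 genes every *octuple* library lay far above every *triple* library. *NATA1*, an acetyltransferase that makes acetylornithine, rose from 0.840, 5.63 and 0.0706 CPM to 86.4, 58.1 and 19.2 CPM (5.11 ± 0.64). Of 17 signalling genes 3 rose, all of them JAZ repressors, which are themselves induced by JA. *JAZ5*, *JAZ10* and *JAZ1* rose by 3.12 ± 0.37, 2.98 ± 0.34 and 1.67 ± 0.41 on the log2 scale. *MYC2*, the main transcription factor of the pathway, had a log2 fold change of 0.78 that was not called, but 98.5% of its 50-base sequences also lie in an overlapping gene, so its counts are uncertain. Synthesis genes changed in 1 of 13 cases, *AOC3*, an allene oxide cyclase, from 0.840, 4.82 and 1.13 CPM to 12.9, 14.5 and 10.6 CPM (2.79 ± 0.40). *LOX2* stood at 604, 450 and 1427 CPM and 810, 652 and 2927 CPM without a call (log2 fold change 0.65), and replicate 3 was the highest library of both genotypes. *NATA1*, *JAZ1*, *JAZ10* and *AOC3* were not called without the block (adjusted p = 0.14, 0.28, 0.08 and 0.13), and *JAZ1* neither without *octuple* replicate 1 (log2 fold change 1.71, adjusted p = 0.18) nor without *triple* replicate 1 (1.72, adjusted p = 0.18).

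In the branch driven by JA with ethylene, 5 of 6 tested genes rose with the block and none without it. *PDF1.2A*, a plant defensin, stood at 18.9, 1.06 and 0.988 CPM in *triple* and 58.3, 11.6 and 17.6 CPM in *octuple*, so each *octuple* library exceeded its same-numbered partner while the groups overlapped (log2 fold change 2.85 ± 0.42, adjusted p = 0.0042). *PDF1.2B* went from 0.997, 0.101 and 0 CPM to 10.3, 3.39 and 1.17 CPM (4.16 ± 0.50). *PDF1.2C* and *PDF1.3* had log2 fold changes of 3.62 and 3.30, and part of the sequence is shared within this family (5.48% of the 50-base sequences of *PDF1.2B*). *ORA59*, a regulator of the branch, was not called (log2 fold change 0.92 ± 0.33, adjusted p = 0.12). The transcription factor gene *ERF1* was called higher, with 3 counts over the *triple* libraries and 51 over the *octuple* libraries. Its ratio was 15.9, with a 95% counting interval of 5.16 to 79.8, and the call was lost in 6 of 16 alternative fits. Of 7 ethylene synthesis and signalling genes the receptor gene *ETR2* rose, from 3.52, 4.27 and 4.14 CPM to 19.2, 15.4 and 9.22 CPM (1.81 ± 0.24).

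Camalexin is the main indolic phytoalexin of Arabidopsis. *CYP71A12*, an enzyme of its synthesis, rose from 0.604, 0.101 and 0.0235 CPM to 19.4, 4.31 and 9.19 CPM (5.65 ± 0.42 on the log2 scale). *CYP71A13*, which catalyses the same kind of step, rose from 1.39, 0.783 and 0.141 CPM to 14.2, 3.12 and 11.6 CPM (3.58 ± 0.60). *CYP71B15*, the last enzyme of the route, rose from 1.39, 0.227 and 0.565 CPM to 14.4, 5.92 and 13.7 CPM (4.08 ± 0.29). *CYP79B2*, which feeds both camalexin and indole glucosinolates, rose less, from 45.5, 59.5 and 37.3 CPM to 147, 108 and 117 CPM (1.39 ± 0.17). These 4 were the only called genes of the 13 tested, where the median was 0.53, and *MYB34* and *MYB51*, regulators of indole glucosinolates, had log2 fold changes of 0.18 and -0.47. Of the 50-base sequences of *CYP71A13* 22.4% also lie in another gene, which leaves part of its counts uncertain. *CYP71A13* was not called without the block (adjusted p = 0.093), without *octuple* replicate 1 (log2 fold change 3.78, adjusted p = 0.097) or without *triple* replicate 1 (3.77, adjusted p = 0.085).

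Class III peroxidases act on the cell wall and on reactive oxygen. Of 38 tested genes with that annotation, a list chosen after their values were seen, 19 rose (against 5.53% of all tested genes) and none fell, with a median log2 fold change of 1.90. Without the block 11 rose, and leaving out 1 library gave 11 to 23. *Prx37* rose from 0.420, 0.429 and 0 CPM to 37.8, 15.4 and 6.56 CPM (6.12 ± 0.39). *PRX52* rose from 0.420, 0.505 and 0.306 CPM to 39.8, 18.7 and 8.05 CPM (5.57 ± 0.32), and *PA2* rose from 1.99, 1.14 and 1.34 CPM to 67.7, 94.8 and 31.6 CPM (5.32 ± 0.31). The *octuple* libraries of all 3 lay above those of *triple*, with replicate 3 the lowest. *PRXCB*, which contributes to the oxidative burst of cultured cells, rose from 72.1, 68.5 and 144 CPM to 641, 380 and 474 CPM (2.44 ± 0.25). AT5G64120, another peroxidase gene, rose from 10.1, 9.67 and 1.01 CPM to 353, 247 and 150 CPM (5.45 ± 0.41), again with groups that lay apart. Among 10 oxidative stress genes *RBOHF*, an NADPH oxidase, rose from 25.4, 19 and 16.5 CPM to 67.2, 55 and 60.9 CPM (1.60 ± 0.12). *ZAT12*, a zinc finger gene of the same list, rose from 0.551, 1.06 and 0.800 CPM to 5.18, 3.81 and 7.25 CPM (2.72 ± 0.33). The catalase gene *CAT3* came just under the fold of 2 (0.97 ± 0.19), and the superoxide dismutase gene *CSD2* lay lower in *octuple* (-0.77 ± 0.11) without a call. Of the glutathione S-transferases 4 of 11 tested phi-class genes rose and none fell, and 3 of 20 tau-class genes rose and 1 fell, against 5.53% and 0.639% of all tested genes. Without the block 2 phi-class genes and 1 tau-class gene rose and none fell. *GSTF2* went from 61.7, 34.4 and 21.4 CPM to 508, 357 and 227 CPM (3.26 ± 0.11), although 54.4% of its 50-base sequences also lie in another gene. *GSTF6* went from 41.4, 24.8 and 41 CPM to 247, 126 and 303 CPM (2.59 ± 0.12, 10.3% shared sequence). *GSTU6* went from 1.73, 2.85 and 1.22 CPM to 24.4, 13.4 and 19.1 CPM (3.29 ± 0.33, 28.3% shared). The *octuple* libraries of all 3 lay above those of *triple*.

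Of 6 mitochondrial stress genes the alternative oxidase gene *AOX1D* rose from 0.0525, 0.126 and 0 CPM to 6.8, 1.73 and 2.09 CPM (5.70 ± 0.69 on the log2 scale). *BCS1*, an AAA-ATPase gene, rose from 1.78, 1.64 and 1.27 CPM to 6.39, 5.1 and 8.63 CPM (2.06 ± 0.26), while *AOX1A* had a log2 fold change of 0.40. Of 7 genes of the unfolded protein response of the endoplasmic reticulum only *BIP3*, the inducible chaperone, was called, from 0.892, 0.227 and 0.0706 CPM to 10.3, 6.36 and 17.8 CPM (4.90 ± 0.59), and the other 6 lay between 0.48 and 0.82 with adjusted p below 0.05. None of 4 heat shock genes was called, against 6.16% of all tested genes. *SAG13*, a senescence-associated gene, rose from 9.63, 4.82 and 0.730 CPM to 152, 40.3 and 38.9 CPM (4.05 ± 0.39), and it and *WRKY53* were the called genes among 10 of senescence, in which the chlorophyll breakdown genes *NYE1*, *NYC1*, *PAO* and *PPH* had log2 fold changes of 0.13, -0.22, -0.03 and 0.15. *AOX1D* was not called without *octuple* replicate 1 (log2 fold change 4.96, adjusted p = 0.059) and *SAG13* not without the block (adjusted p = 0.12).

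Genes induced by phosphate starvation rose in 8 of 11 tested cases, none fell, and the median log2 fold change was 1.55. *SPX3*, a phosphate sensor protein, rose from 0.236, 0 and 0.212 CPM to 5.96, 1.01 and 3.39 CPM (4.55 ± 0.49). *PPSPASE1*, a pyrophosphatase gene, rose from 3.28, 3.99 and 2.8 CPM to 25.1, 8.89 and 29.1 CPM (2.49 ± 0.38). *PAP17*, an acid phosphatase gene, rose from 18.8, 16.4 and 28.2 CPM to 66.9, 39 and 85.1 CPM (1.55 ± 0.13). In these 3 genes every *octuple* library lay above every *triple* library. *PEPC1*, a phosphatase gene, rose from 6.04, 1.51 and 1.22 CPM to 14.8, 3.96 and 7.88 CPM (1.75 ± 0.28), with *octuple* replicate 2 below *triple* replicate 1. *MGD3*, which makes galactolipids that replace phospholipids, rose from 5.8, 3.59 and 4.38 CPM to 16.4, 8.72 and 20.1 CPM (1.65 ± 0.19). Outside this list the acid phosphatase gene *PAP14* rose from 0.157, 0.0505 and 0.447 CPM to 7.4, 3.96 and 8.91 CPM (5.01 ± 0.37). Without the block 2 of the 11 rose, and *SPX3*, *PAP17*, *PEPC1* and *MGD3* were not called (adjusted p = 0.087, 0.07, 0.39 and 0.059). *PPSPASE1* was not called without *octuple* replicate 1 (log2 fold change 2.25, adjusted p = 0.078) or without *triple* replicate 1 (2.27, adjusted p = 0.079).

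**Figure D3:**
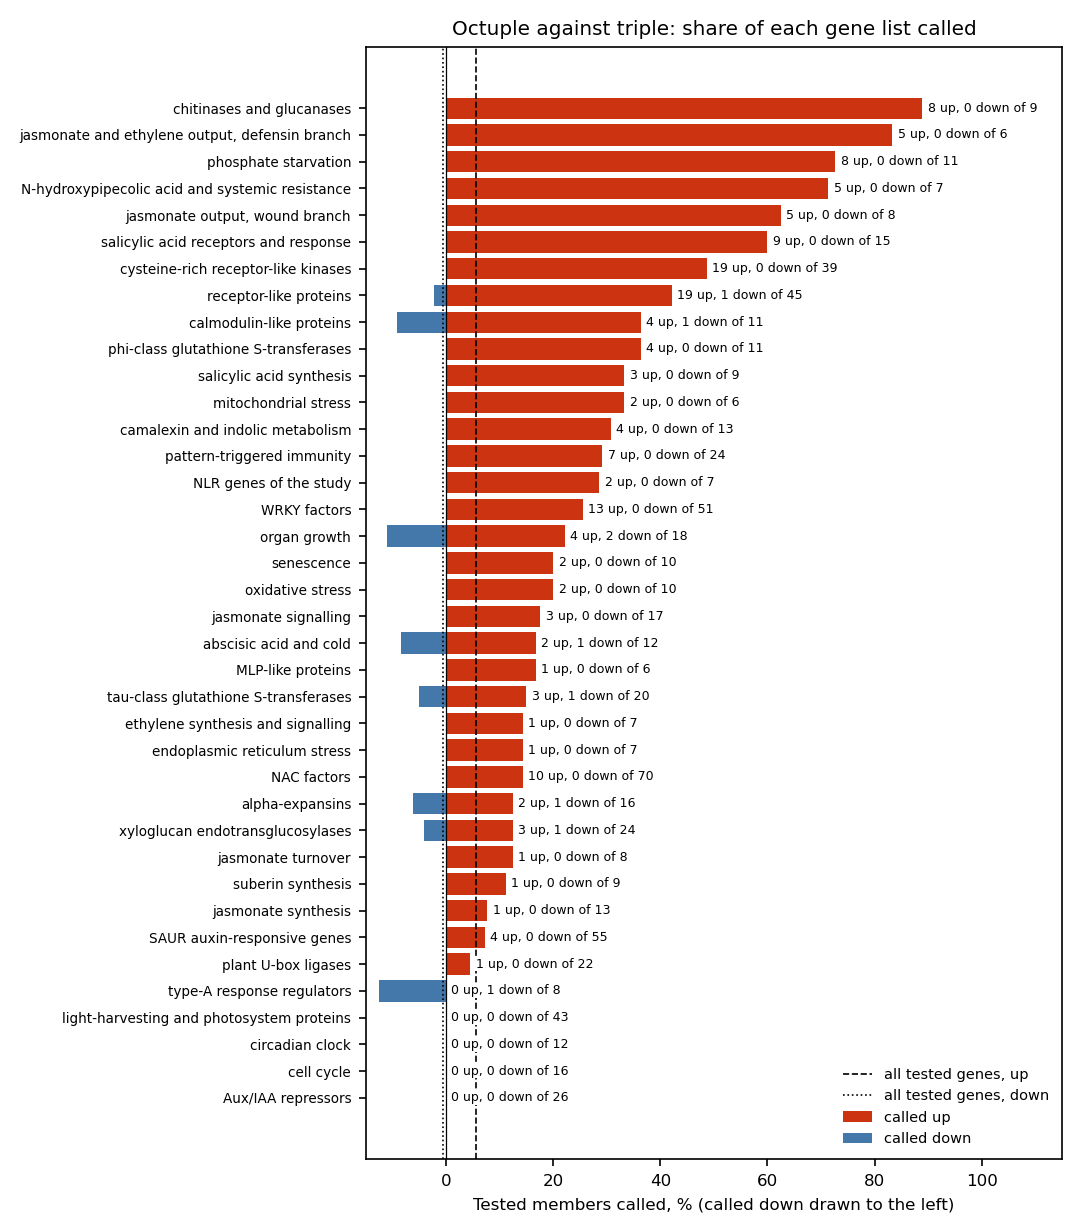
Each bar is the percentage of the tested members of a gene list that was called, up to the right in red and down to the left in blue, with the counts beside it and lines at the 5.53% and 0.639% of all tested genes. Chitinases and glucanases (8 of 9) head the plot, and lists of light harvesting, the clock, the cell cycle and Aux/IAA repressors had no called member.

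Lists of photosynthesis, cell cycle and auxin repressor genes held no call, whereas that of organ growth did. Over all tested genes 6.16% were called, so lists this short can lack a call by their size alone. None of 43 light-harvesting and photosystem genes was called, and their log2 fold changes ran from -0.69 to 0.66. None of 16 cell cycle genes was called either, and they ran from -0.58 to 0.09. Their median was -0.29, against -0.03 over all tested genes. Among them the replication helicase genes *MCM2* and *MCM6* lay at -0.56 ± 0.12 and -0.58 ± 0.11. Auxin repressors of the Aux/IAA group showed no call in 26 tested genes. Among 18 organ growth genes 4 rose (22.2%) and 2 fell (11.1%), against 5.53% and 0.639% of all tested genes, with a median log2 fold change of -0.27. Without the block 1 rose and 1 fell, and leaving out 1 library gave 1 to 5 that rose. *OSR1*, which promotes organ growth, rose from 0.394, 0.253 and 0.353 CPM to 8.78, 11.7 and 3.5 CPM (4.42 ± 0.40), and 39.6% of its 50-base sequences also lie in an overlapping gene. *ARGOS*, a related growth promoter, rose from 0.997, 0.732 and 1.29 CPM to 6.08, 7.45 and 2.37 CPM (2.25 ± 0.45). *TCP1*, a transcription factor of the TCP family, fell from 0.866, 0.354 and 1.62 CPM to 0.0241, 0.0248 and 0.0432 CPM (-4.79 ± 0.68, with all *octuple* libraries under the limit of 3 counts). *ANT*, a regulator of organ size, and the growth-regulating factor gene *GRF4* lay lower in *octuple* by less than the fold of 2 (-0.75 ± 0.12 and -0.91 ± 0.14). Of 24 tested xyloglucan endotransglucosylase genes, whose enzymes remodel the cell wall, 3 rose (12.5%) and 1 fell (1 and 0 without the block), with a median of 0.09. Of 16 alpha-expansin genes, whose proteins loosen the wall, 2 rose (12.5%) and 1 fell with and without the block, with a median of 0.31. Over all tested genes 5.53% rose and 0.639% fell. *XTH19* rose from 4.88, 3.44 and 1.32 CPM to 87.3, 95.8 and 35.2 CPM (4.54 ± 0.16). *EXPA4* rose from 26.3, 40.7 and 64.9 CPM to 142, 204 and 146 CPM (1.96 ± 0.24). *EXPA14* fell from 4.54, 3.79 and 2.8 CPM to 0.796, 0.718 and 0.820 CPM (-2.23 ± 0.29), and in these 3 the groups lay apart. *XTH17* fell from 12.9, 16.4 and 4.17 CPM to 1.21, 7.3 and 1.36 CPM (-2.01 ± 0.39) with groups that overlapped. *TCP1* was not called without *triple* replicate 1 (log2 fold change -4.68, adjusted p = 0.056), *ARGOS* neither without *octuple* replicate 1 (2.06, adjusted p = 0.15) nor without *triple* replicate 1 (2.07, adjusted p = 0.14), and *ARGOS* and *XTH17* not without the block (adjusted p = 0.061 and 0.4).

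Some genes were counted in a single genotype of the pair. With 0 counts in all 3 *triple* libraries and a mean of at least 50 in *octuple* there were 7 genes, and with the reverse there was 1. *sks15*, a multicopper oxidase-like gene related to SKU5, had 1214 counts over the 3 *octuple* libraries, at least 379-fold more than the floor of 3 counts over the group allows in *triple*, and stood at 13.2, 1.41 and 13.2 CPM. *EXPA12*, an expansin, was at 2.12, 6.49 and 2.2 CPM (at least 141-fold higher), with replicate 2 the highest. AT3G13610, an oxygenase gene, was at 5.35, 1.14 and 2.27 CPM (at least 117-fold). AT1G10586, a bHLH factor gene, was at 2.27, 1.71 and 2.89 CPM (at least 92.8-fold). AT1G20740, AT5G40000 and the lipase gene *GLIP1* were at least 76.6-, 74.1- and 47.5-fold higher. The *octuple* libraries of *sks15* were uneven, with replicate 2 far under the others, and its call was lost without the block (adjusted p = 0.06). *GLIP1* was not called without *octuple* replicate 1 (adjusted p = 0.055).

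*BT5* was the reverse case. It encodes a protein with BTB and TAZ domains, had 11.1, 9.77 and 5.88 CPM in *triple* and 0 counts in every *octuple* library, and was at least 376-fold lower against the same floor. It was also at 0 in all 3 *quintuple* libraries, against 5.99, 22.3 and 4.68 CPM in WT, so no count fell on *BT5* in any of the 6 libraries with the cbp60 mutations. AT4G37608, which overlaps *BT5*, was counted in the same libraries, at 1.21, 1.92 and 1.67 CPM in *triple* and 1.5, 1.44 and 2.57 CPM in *octuple*. The other 4 tested BTB and TAZ domain genes were not called (log2 fold changes of -0.42 to 0.38).

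Some genes of calcium exchange and binding fell. *CAX1*, which exchanges calcium for protons at the vacuole, fell from 805, 639 and 506 CPM in *triple* to 64.3, 63.7 and 64.2 CPM in *octuple*, a log2 fold change of -3.33 ± 0.14 (adjusted p = 1.4e-05), or 10.0-fold. The 3 *octuple* libraries were nearly equal, whereas those of *triple* spread from 506 to 805 CPM. *CAX3*, its close relative, fell from 93, 28.6 and 33.9 CPM to 20.2, 0.966 and 6.43 CPM (-2.93 ± 0.42, adjusted p = 0.0038). These were the 2 called genes of 6 tested cation exchangers, a list chosen after values were seen, and the others lay between -0.10 and 0.48. The share of 33.3%, against 0.639% of all tested genes that fell, is therefore a description only. Without the block 1 of the 6 fell. *CML41*, a calmodulin-like protein, fell from 30.1, 3.18 and 2.85 CPM to 0.844, 0.297 and 0.583 CPM (-3.80 ± 0.50), with *triple* replicate 1 far above the other *triple* libraries. It was the 1 gene of 11 tested calmodulin-like proteins that fell, while 4 rose and the median log2 fold change of the list was 0.73, and none of these 5 calls was kept without the block. The calcium pump genes *ACA1* and *ACA2* were not called (-0.78 ± 0.16 and 0.58 ± 0.12). *CAX3* and *CML41* were lost without the block (adjusted p = 0.32 and 0.11).

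Of 38 tested genes annotated as EF-hand proteins, which bind calcium, 7 rose (18.4%) and 4 fell (10.5%), against 5.53% and 0.639% of all tested genes. This list too was chosen after values were seen, so its shares are descriptions only. The median log2 fold change of the list was 0.04, and without the block 2 rose and 4 fell. AT2G46600 fell from 72.3, 46.3 and 39 CPM to 13.4, 7.9 and 9.76 CPM (log2 fold change -2.34 ± 0.13, adjusted p = 4.8e-05). AT2G41410 fell from 100, 64.7 and 65 CPM to 32.9, 30.9 and 20.9 CPM (-1.45 ± 0.14). AT3G10190 fell from 4.54, 5.61 and 5.53 CPM to 1.76, 1.11 and 1.36 CPM (-1.91 ± 0.26), and AT1G21550 fell from 5.96, 3.06 and 4.92 CPM to 0.434, 0.619 and 1.08 CPM (-2.72 ± 0.36). In each of them every *octuple* library lay below every *triple* library, and all 4 calls were kept without the block. Among those that rose, *MSS3* went from 31.9, 19.9 and 10.4 CPM to 62.5, 67.1 and 43.8 CPM (1.58 ± 0.19), and AT1G76640, AT3G59440 and AT5G39670 had log2 fold changes of 3.99, 3.68 and 3.55. *MSS3* was not called without the block (adjusted p = 0.14).

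**Figure D4:**
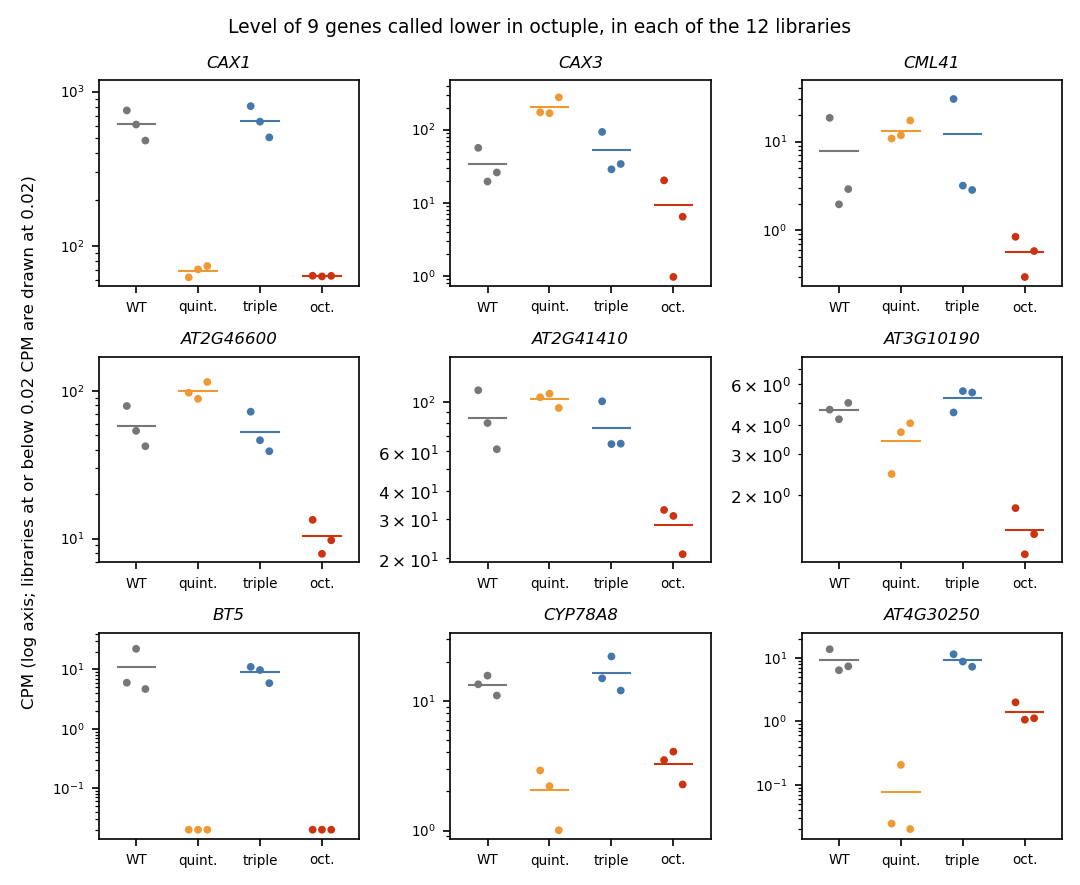
Points are the 12 libraries, 3 of each genotype in the order of replicates 1 to 3, bars are means and the y axis is CPM on a log scale that differs between the 9 genes. *CAX1*, *CYP78A8*, AT4G30250 and *BT5* are low in both *quintuple* (orange) and *octuple* (red), whereas *CAX3*, *CML41*, AT2G46600 and AT2G41410 are low in *octuple* only, and libraries at or below 0.02 CPM are drawn at 0.02.

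Other genes that fell had no common annotation. *CYP78A8*, a cytochrome P450, fell from 14.9, 22 and 12 CPM to 3.5, 4.06 and 2.27 CPM (-2.32 ± 0.15 on the log2 scale). AT4G30250, annotated as a nucleoside triphosphate hydrolase, fell from 11.5, 8.81 and 7.29 CPM to 2.00, 1.06 and 1.12 CPM (-2.75 ± 0.20). For both, every *octuple* library lay below every *triple* library. AT1G04660, a glycine-rich protein gene, fell from 1.52, 3.08 and 2.42 CPM to 0.145, 0.198 and 0.626 CPM (-2.98 ± 0.48). AT4G17860, annotated with a domain of unknown function, fell from 3.33, 4.22 and 5.22 CPM to 0.940, 0.347 and 1.45 CPM (-2.34 ± 0.38). AT5G46871, a putative membrane lipoprotein gene, went from 2.28, 1.44 and 0.588 CPM to 0.603, 0.149 and 0.0863 CPM (-2.54 ± 0.48) with groups that overlapped. *GL1*, which starts trichomes, fell from 2.31, 1.77 and 2.35 CPM to 1.18, 0.570 and 0.691 CPM (-1.45 ± 0.34). *AG*, a floral identity gene, fell from 1.21, 1.36 and 1.72 CPM to 0.145, 0.272 and 0.259 CPM (-2.68 ± 0.44). Both stood low in *triple* and had groups that did not overlap. The epidermal gene *PDF1* and the guard cell channel gene *KAT1* were lower in every *octuple* library without reaching the fold of 2 (-0.75 ± 0.12 and -0.85 ± 0.15). Without *octuple* replicate 1 the calls of AT1G04660, AT5G46871, *GL1* and *AG* were lost (log2 fold changes -2.83, -3.04, -1.72 and -2.54) and without *triple* replicate 1 likewise (-2.82, -3.02, -1.71 and -2.53), and *GL1* was lost without replicate 3 of either genotype (-1.27 and -1.28). Without the block AT1G04660, AT4G17860, AT5G46871 and *GL1* were not called (adjusted p = 0.073, 0.082, 0.25 and 0.13).

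Whether loss of the *CBP60b* clade acted alike with EDS1, PAD4 and NDR1 intact was asked in 1 fit over the 12 libraries. The labels do not say which *quintuple* line gave *octuple*, so whether both carried the same *cbp60* alleles is not known. The comparison of *quintuple* with WT shares no library with that of *octuple* with *triple*, but the study describes *quintuple* plants as dying at about the age of sampling, and the part of this in the *quintuple* values was not tested. In this fit 1017 genes rose in *octuple* against *triple* (5.05% of 20134 tested) and 4170 in *quintuple* against WT (20.7%). Both comparisons called 951 genes as higher, 93.5% of the *octuple* calls and 22.8% of the *quintuple* calls. Of 81 genes that fell in *octuple* (0.402%) and 4396 that fell in *quintuple* (21.8%), 64 were shared, 79.0% and 1.46% of the respective calls. The 2 effects differed by a test of their difference in 5697 genes (28.3%), with a difference below 0 in 2291 (11.4%) and above 0 in 3406 (16.9%). This balance turned when libraries were scaled by their totals alone, with 3352 genes below 0 and 2643 above 0, and that scaling moved the median difference over all genes from 0.00 to -0.24 on the log2 scale. Of the 1063 genes that rose in the comparison of *octuple* with *triple*, 458 (43.1%) had a smaller effect than in the WT background, 55 (5.17%) a difference above 0, and in 550 (51.7%) no difference was called, which does not show that the effects were equal. Of the 123 that fell, 63 (51.2%) had a difference above 0, 13 (10.6%) a difference below 0, and 47 no called difference. Scaled by totals alone, 542 of the genes that rose had a difference below 0 and 43 above 0, and of those that fell 17 and 58.

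**Figure D5:**
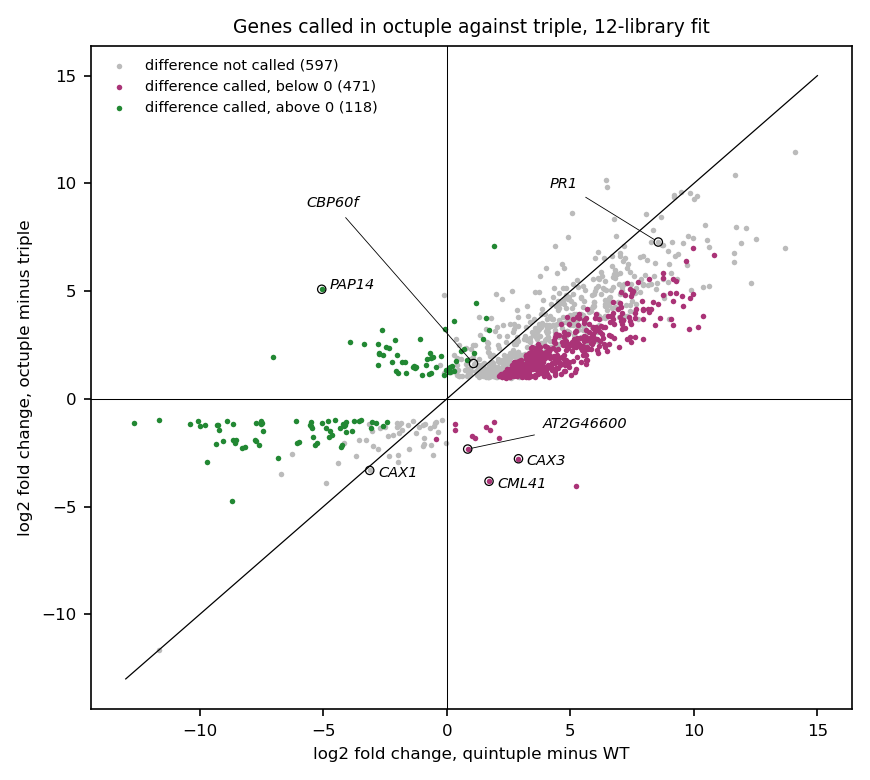
Each point is a gene called in *octuple* against *triple*, with the log2 fold change of *quintuple* minus WT on the x axis and of *octuple* minus *triple* on the y axis, both from the 12-library fit, and the diagonal marks equal effects. Purple points (471 genes) have a called difference below 0, green points (118 genes) one above 0 and grey points (597 genes) none. The points farthest out on either axis belong to genes with almost no counts in 1 group and depend on the prior count.

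*PR1* stood at 52.8, 2.23 and 1.96 CPM in WT and 3183, 4311 and 4285 CPM in *quintuple*, so all *quintuple* libraries lay above all *octuple* libraries. It rose by 7.28 on the log2 scale in *octuple* against *triple* and by 8.56 in *quintuple* against WT, and the difference of -1.28 ± 1.48 was not called (adjusted p = 0.51). For the SA synthesis genes *SID2*, *PBS3* and *EDS5* the differences, *octuple* effect minus *quintuple* effect, were -3.40 ± 0.57 (adjusted p = 0.0013), -2.58 ± 0.33 (adjusted p = 0.00031) and -2.29 ± 0.31 (adjusted p = 0.00043). *SID2* reached 630, 357 and 604 CPM in *quintuple* against 63.3, 31.7 and 56 CPM in *octuple*. The difference was -2.95 for *CBP60g* and -2.67 for *PAD4*. *AZI1*, *HCHIB* and *THI2.1* had differences of -0.27 ± 0.53, -0.38 ± 0.59 and -1.29 ± 2.45 that were not called.

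*CAX1* fell in both backgrounds. It stood at 756, 613 and 482 CPM in WT and 62.8, 70.8 and 74.3 CPM in *quintuple*, and the difference of effects of -0.20 ± 0.26 was not called (adjusted p = 0.56). *CAX3* moved in opposite directions. It was at 56.3, 19.5 and 25.9 CPM in WT and 173, 168 and 277 CPM in *quintuple*, higher there and lower in *octuple*, with a difference of -5.68 ± 0.85 (adjusted p = 0.00076). *CML41* and the EF-hand genes AT2G46600, AT2G41410 and AT3G10190 also had differences below 0, of -5.53 ± 1.03, -3.17 ± 0.29, -1.76 ± 0.22 and -1.44 ± 0.34. All 4 were lower in *octuple* than in *triple*, and in *quintuple* against WT their log2 fold changes were 1.71, 0.84, 0.32 and -0.44.

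Phosphate starvation genes had mostly differences above 0. In the 12-library fit 6 of the 11 rose in *octuple* against *triple* and none fell, while in *quintuple* against WT 4 rose and 3 fell, and 6 had a called difference above 0 and 1 below 0. *MGD3* stood at 3.94, 3.39 and 3.67 CPM in WT and 1.61, 1.44 and 0.213 CPM in *quintuple*, a difference of 3.53 ± 0.73 (adjusted p = 0.0041). *PEPC1* stood at 3.4, 0.527 and 1.3 CPM and 0.586, 0.0916 and 0.348 CPM, a difference of 3.96 ± 0.50 (adjusted p = 0.00032). The *quintuple* libraries of *MGD3* lay below all those of WT, whereas those of *PEPC1* overlapped. *PAP17* was the exception, with a difference below 0 (-1.29 ± 0.22, adjusted p = 0.0013). *OSR1* rose in *octuple*, while in *quintuple* it stood at 1.03, 0.527 and 0.445 CPM against 0.156, 0.377 and 0.307 CPM in WT (difference 3.28 ± 0.72, adjusted p = 0.0056).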

How the data were processed

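RNA was taken from aerial parts of seedlings with TRIzol, libraries were made with a VAHTS kit and sequenced on an Illumina NovaSeq instrument. Per the labels the authors aligned with HISAT2, counted with HTSeq and used R 3.2.0, and the authors deposited raw counts and FPKM per gene for each library. The versions of HISAT2 and HTSeq, the genome build, the annotation and the strand setting are not given in the sources used here. The deposited FPKM values equalled count over gene length and library total within a relative tolerance of 0.001 for 100% of the values above 0. The count table held 23784 genes, all of which matched a TAIR10.1 locus, which was used for names, products, primer positions and shared sequence only. The 12 libraries held 38698646 to 44294404 counted fragments. Copies of 1 library were not found, since the counts of every pair of replicates of a genotype differed beyond sampling noise.

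Counts of *octuple* and *triple* were tested with edgeR 4.0.16 (R 4.3.3): TMM scaling, filterByExpr by genotype, a quasi-likelihood fit with genotype and the replicate number as a block, and Benjamini-Hochberg adjustment over the 19238 tested genes. A gene was called at an adjusted p below 0.05 and a fold of at least 2. The SE was the absolute log2 fold change divided by the square root of the quasi-likelihood F statistic, not a spread between replicates. The block follows the definition of the comparison. Deviations from the genotype mean correlated at 0.448 to 0.727 between same-numbered libraries and at -0.583 to 0.278 between others. Such deviations sum to 0 within a genotype, so positive same-numbered values force the others down and the contrast is partly built in. Much of it set replicate 3 apart, with -0.583 to -0.43 against replicates 1 and 2. Between replicates 1 and 2 the differently numbered libraries had 0.278 and 0.173, against 0.526 and 0.448 for the same numbers. The labels do not say what a number shares. A difference of effects, *octuple* minus *triple* less *quintuple* minus WT, was fitted over all 12 libraries (20134 genes) and called at an adjusted p below 0.05 and a difference of at least 1 on the log2 scale. Bounds for genes at 0 counts used a floor of 3 counts over a group, and ratios of 1 to 3 counts have 95% counting intervals, which cover counting error only. Scripts were tested on simulated data. Shared sequence is the percentage of 50-base exonic sequences of a gene that also occur in another gene of the reference.

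The members and lists were chosen with earlier results of these data known, so counts in a list are descriptions. Named were the mutated genes and relatives, the 10 largest changes in each direction among genes whose group means both reached 10 counts and whose 3 pairs moved 1 way, genes at 0 in every library of a group whose counterpart averaged 50 counts or more, the 5 largest called differences of effect in each direction, and list members led by those of largest change. Families named by annotation, several other genes and the alternative without replicate 3 were chosen after seeing the data. Alternatives were no block, DESeq2 1.42.0, limma 3.58.1 on log2(FPKM + 1), other scalings, no filter, a test against a fold of 2, the 12-library fit and leaving out each library. Tables and figures were made with Python 3.11.15, pandas 2.3.3 and matplotlib 3.10.9.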

Additional observations from a re-analysis of the deposited data

Results flagged for a closer look

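The effect of the cbp60 mutations was larger or smaller with *EDS1*, *PAD4* and *NDR1* absent than with them present in 5697 of 20134 genes (28.3%), by the test of the difference of effects in the 12-library fit of edgeR. The differences below are the log2 fold change of *octuple* minus *triple* less that of *quintuple* minus WT, each with an adjusted p below 0.05. What sets them was not tested.

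Among the mutated genes the difference was -1.98 for *CBP60b*, -1.66 for *EDS1* and -2.67 for *PAD4*. Of their relatives it was -1.19 for *CBP60a*, -2.95 for *CBP60g*, -1.77 for *SARD1* and -1.38 for *SAG101*. The helper receptor genes *ADR1*, *ADR1-L1* and *ADR1-L2* had -2.55, -1.76 and -1.52, and AT5G66910, a gene next to AT5G66900 in the same helper class, had -1.61. The SA synthesis genes *PBS3*, *SID2* and *EDS5* had -2.58, -3.40 and -2.29 and the SA receptor gene *NPR1* -1.06. *CHI* and AT4G16260, described with the chitinases and glucanases, had -2.95 and -2.92, and the JA output gene *VSP2* had -1.77.

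Among genes of calcium exchange and binding the difference was -5.68 for *CAX3*, -5.53 for *CML41*, -3.17 for AT2G46600, -1.76 for AT2G41410 and -1.44 for AT3G10190. Differences above 0 belonged to AT4G30250 (4.09), AT1G04660 (6.77), AT4G17860 (6.00), *PEPC1* (3.96), *MGD3* (3.53) and *OSR1* (3.28), while *PAP17* had -1.29. AT1G04660 had 0 counts in *quintuple* and AT4G17860 had 1, so both values depend on the prior count.

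The 10 largest differences all involved groups with no or almost no counts, and their size depends on the prior count of the fit. Of these 10 calls 4 were lost without replicate 2 of all genotypes, 2 without replicate 1, 2 without replicate 3 and 1 without the block. AT3G05727 (11.85), the calcium-binding protein gene AT1G12080 (11.57), the peroxidase gene AT4G11290 (11.39) and the acyltransferase gene AT2G38995 (10.65) had 0 counts in *quintuple* and were countable in the other 3 genotypes. AT3G05727 stood at 18.9, 25.1 and 15 CPM in WT, 10.1, 14.7 and 10.9 CPM in *triple* and 8.87, 4.16 and 6.97 CPM in *octuple*, and was at least 891-fold lower in *quintuple* than in WT. *PAP14* (10.15) had 1 count over *quintuple*, 0.181, 0.276 and 0.497 CPM in WT and 7.4, 3.96 and 8.91 CPM in *octuple*. In the other direction AT2G18590 (-11.52), AT5G14650 (-11.04), *CYP94B3* (-10.96), *ELI3-2* (-10.91) and AT3G46700 (-10.43) were highest in *quintuple*. *CYP94B3*, which oxidises jasmonoyl-isoleucine, stood at 45.7, 15 and 4.95 CPM in *quintuple* and 0.603, 0.0248 and 0.0216 CPM in *octuple*, and its 0.0262, 7.53 and 0 CPM in *triple* rested on replicate 2. *ELI3-2* stood at 24.2, 11.8 and 20.5 CPM in *quintuple*, 1.69, 0.594 and 0.928 CPM in *octuple* and 0, 4.7 and 0.0235 CPM in *triple*, and was again highest in replicate 2 of *triple*.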

How the results depend on the processing

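In the blocked fit 1063 genes rose and 123 fell, and without the replicate block, that is without the pairing, 441 rose and 24 fell. A test against a fold of 2 called 537 and 25, limma on log2(FPKM + 1) 690 and 45, and the 12-library fit 81 lower genes. Leaving out 1 library gave 598 (without *octuple* replicate 1) to 1306 (without *triple* replicate 2) genes that rose and 46 (without *triple* replicate 1) to 190 (without *octuple* replicate 3) that fell, with 659 and 56 without *triple* replicate 1 and *octuple* replicate 1, respectively. DESeq2 with the block called 1172 and 131 genes and the other scalings 1039 to 1097 and 110 to 132. The cause of these shifts was not tested, and leaving out a library also removes its pair from the blocked fit. Of 163 named genes tested, 124 were called, of which 70 kept the call under all alternatives and 54 lost it under at least 1, 43 of them without the block. No called gene changed sign. *CBP60d*, not called, ran from -0.19 to 0.12 when 1 library was left out, being above 0 without *octuple* replicate 1 (0.10) and *triple* replicate 1 (0.12). AT4G11290 ran from -0.16 to 0.43, with -0.16, -0.02, -0.14 and -0.02 without replicates 1 and 2 of *octuple* and of *triple*. *ELI3-2* was -0.56 without the block and ran from -0.33 (without *triple* replicate 1) to 6.36 when 1 library was left out, with -0.25 without *octuple* replicate 1.

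A count of 0 in a library allows up to 3 counts, 0.0647 to 0.0787 CPM, so folds of genes absent from a group are bounds. Each genotype had 3 pools, the origin of the *octuple* line is not given, and clock genes moved with replicate 3 of both genotypes, whose part in the results was not tested.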

Other observations

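Further families held genes that rose in *octuple*. They were grouped by annotation after their values were seen and are described by counts only, beside 5.53% of all tested genes that rose and 0.639% that fell. Of 18 tested berberine bridge enzyme genes, whose products oxidise cell wall oligosaccharides among others, 12 rose (7 without the block), with a median log2 fold change of 2.01 against -0.03 over all tested genes. AT1G26410 and AT1G30760 had 7.95 and 5.91. Of 45 small lipid-transfer protein genes 17 rose (8 without the block), led by AT2G37870 with 5.51, and their median was 0.47. Of 46 aspartyl protease genes 9 rose (5 without the block), led by AT5G10760 with 5.59, with a median of 0.35, and of 20 VQ motif genes 6 rose (4 without the block), led by AT4G20000 with 4.91, with a median of 0.79. Mannose-binding lectin genes rose in 6 of 12 cases (2 without the block) with a median of 1.35. None of these families had a gene that fell.

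Some growth and transport genes fell outside the lists above. UMAMIT transporters export amino acids, and their list was chosen after values were seen. Their genes held 3 that fell among 34 tested (8.82%, against 0.639% of all tested genes) and none that rose. They were UMAMIT17 (-1.85), UMAMIT36 (-1.50) and UMAMIT12 (-1.11), and none of these calls was kept without the block. The cytokinin response regulator gene ARR15 fell by 1.34 on the log2 scale, a call lost without the block, and its 7 tested relatives were not called. Of 12 tested genes of abscisic acid and cold 2 rose and 1 fell, against 1 and 0 without the block. The cold gene KIN1 (3.35) and the abscisic acid synthesis gene NCED3 (1.81) rose, while the cold gene *COR15A* fell by 1.18 on the log2 scale, with -0.71 and no call without replicate 3 of both genotypes.

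*CAX1*, at AT2G38170, was not the single gene of its region that fell. AT2G38180, an esterase gene with the next locus number, stood at 18.8, 17 and 10.0 CPM in *triple* and 7.21, 5.1 and 6.97 CPM in *octuple*, a log2 fold change of -1.22 ± 0.22 (edgeR adjusted p = 0.011), and at 5.54, 8.45 and 8.18 CPM in *quintuple* and 16.8, 16.4 and 10.6 CPM in WT. In both genes every library with the cbp60 mutations lay below every library without them. IPS1, a non-coding RNA of phosphate starvation, had 0 counts in *quintuple*, 0.856, 0.0502 and 0.379 CPM in WT, 0.315, 0.379 and 0.377 CPM in *triple* and 1.25, 0.743 and 2.68 CPM in *octuple*.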
